A study of Neurospora crassa OR74A with 2 samples.

Results

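Filamentous fungi test whether a neighbouring cell is self before, during and after cell fusion, and the transcripts of 7 Neurospora crassa genes of these checkpoints were compared in 2 RNA-seq libraries. The genes were the communication genes doc-1 (NCU07191) and doc-2 (NCU07192), the cell wall checkpoint genes cwr-1 (NCU01380) and cwr-2 (NCU01382), the cell death gene rcd-1 (NCU05712), and the neighbouring pair plp-1 and sec-9 (NCU09243 and NCU09244). They were picked by identifier, with their values in both libraries known, from 8564 genes measured in each library. The tables carry identifiers without these names. They do not settle which gene of the last pair is plp-1 and which is sec-9, so these 2 are called by identifier. The names doc-1 and doc-2 were given to NCU07191 and NCU07192 in that order when the genes were picked, and the tables do not check this either. All 7 were present, each listed once, and their differences between the libraries are descriptions of values that were known when they were picked.

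One library came from the wild type, strain FGSC 2489, with no deletion. The other came from the Δpp-1 strain, in which the gene pp-1 is deleted. The labels name no further allele and no added agent for either strain. Conidia, which are asexual spores, were inoculated in both cases and left to germinate at 30 °C for 5 h. PP-1 is a transcription factor of the Ste12 family and acts below the MAP kinase MAK-2 in the signalling that lets germinated conidia, or germlings, find one another and fuse. The sequence of these 7 genes in the Δpp-1 strain was not analysed here. Whether reads of both strains map equally well to these genes was therefore not tested. The labels do not say how the strain was made or whether it is 1 clone.

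Neurospora germlings of the same type attract each other, grow together by chemotropism, dissolve the walls between them and merge their membranes. The doc genes act at a distance: germlings that differ at this locus rarely exchange the signals that guide growth. The cwr genes act at contact, where a mismatch leaves the walls between adhering cells intact. CWR-1 belongs to a family of polysaccharide monooxygenases and CWR-2 is a membrane protein. After fusion, mismatched rcd-1 alleles trigger rapid cell death. RCD-1 is related to the gasdermins, pore-forming proteins of animal cell death. PLP-1, a patatin-like phospholipase with the domain layout of NOD-like receptors, triggers death when it meets a SEC-9 of another type. SEC-9 is a SNARE protein of secretory vesicle fusion. Allorecognition itself was not measured in these cultures.

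Levels are in RPKM, the number of reads per kilobase of a gene for each 1000000 reads in the library. The spacing of the low values puts the wild-type total at 3935040 reads and the Δpp-1 total at 4681960. The deleted gene pp-1 (NCU00340) was at 83.8 RPKM without the deletion and 1.69 RPKM with it. The direction is that of the label, but the gene was not at 0 in Δpp-1. At most about 33.9 reads remained there, and their source was not examined. With 1 library per strain there is no replicate spread, no test was possible and no p-value is given. Intervals below are 95% counting intervals and cover counting error only. Log2 folds are differences of log2(RPKM + 1), Δpp-1 minus wild type, which understates those of low genes.

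In the wild type all 7 genes lay above the median gene, and in Δpp-1 only 3 of the 7 did. The level of the median gene was 11.95 RPKM in the wild-type library and 9.84 RPKM in the other. Among the 7, levels ran from 12.003 to 413 RPKM in the wild type. In Δpp-1 they ran from a gene listed at 0 up to 73.3 RPKM. A difference of 2-fold or more downward, in a gene that reaches 10 RPKM in either library, was found for doc-2, cwr-1, cwr-2, rcd-1 and NCU09244, 5 of the 7. Over all 4831 genes that reach 10 RPKM in either library, 6.98% were counted so. None of the 7 was at least 2-fold higher, against 2.73% of the 4831. Past 4-fold lower were cwr-1, cwr-2 and rcd-1, 3 of the 7, where 2.34% of all genes were. The gene rcd-1 enters both counts through its listed 0, which can be a failed estimate, and without it they were 4 and 2 of 6. The 7 were picked with these values known, so nothing is read from the counts. In bulk RNA, fewer cells expressing a gene and less RNA per cell cannot be told apart.

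**Figure D1:**
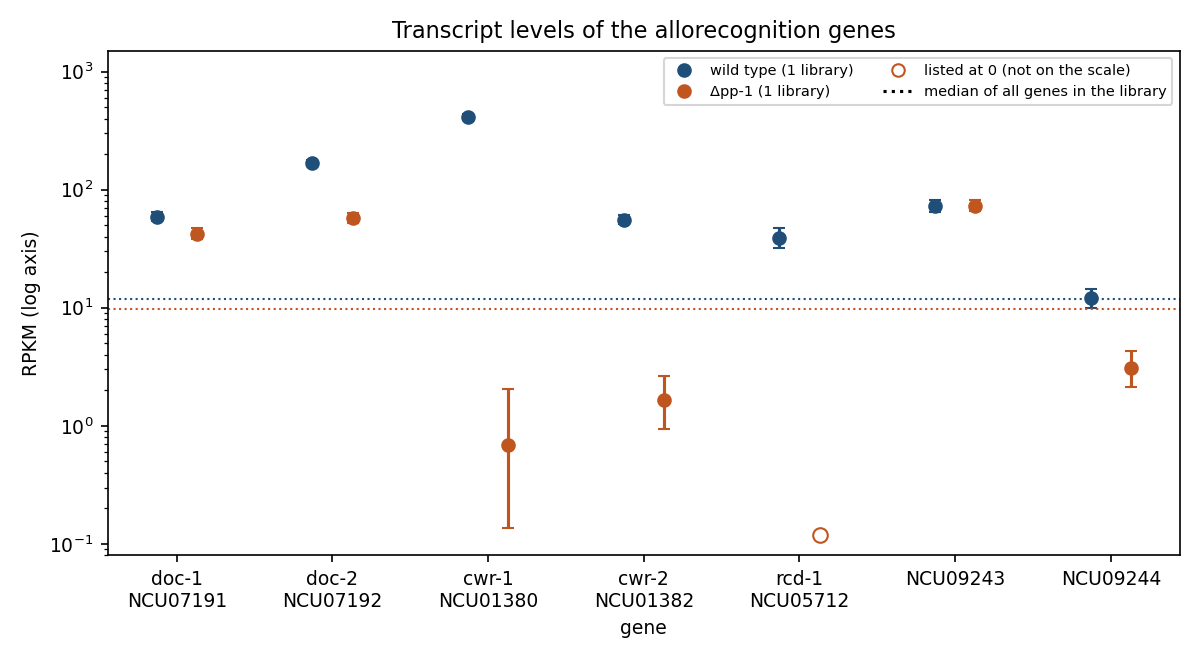
Level of each of the 7 genes in RPKM on a log axis, in the single wild-type library (blue) and the single Δpp-1 library (orange), with bars for the 95% counting interval and dotted lines for the median of all genes in each library. The levels of cwr-1, cwr-2 and NCU09244 are above the median gene in the wild type and below it in Δpp-1, rcd-1 is listed at 0 in Δpp-1 (open circle, placed off the scale), and NCU09243 is at 72.5 and 73.3 RPKM.

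Among the genes acting before contact, doc-2 was lower in Δpp-1 and doc-1 was not past 2-fold. The doc-2 transcript stood at 169 RPKM in the wild type, with an interval from 159 to 179, and at 57.6 RPKM in Δpp-1, with an interval from 52.5 to 63.1. The 2 intervals do not overlap, and the ratio was 2.93-fold. In log2 terms the fold was -1.53, and it was -1.29 relative to all genes, that is, to the median of -0.25 over the 6885 genes averaging 1 RPKM or more. The doc-1 transcript stood at 59.2 RPKM (53.8 to 64.9) in the wild type and 42.5 RPKM (38.3 to 46.9) in Δpp-1. These intervals do not overlap either, but the log2 fold of -0.47 was only 0.22 below all genes. The level of doc-2 was thus 2.85 times that of doc-1 in the wild type and 1.36 times in Δpp-1. Both doc genes were among the better expressed genes of the Δpp-1 library, above 86.6% and 82.6% of all genes for doc-2 and doc-1.

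The contact checkpoint genes showed the widest gaps among the 6 members with a value above 0 in both libraries. With 413 RPKM in wild-type germlings (392 to 435), cwr-1 ranked 213 among 8564 genes, above 97.5% of them. In Δpp-1 it stood at 0.688 RPKM (0.137 to 2.04), above 17.9% of genes, and this value rests on at most about 5.82 reads, too few to fix the size of the ratio. The ratio of the RPKM values was 601-fold. The interval of its log2, Δpp-1 over wild type, ran from -11.56 to -7.66, and the log2 fold with the pseudocount was -7.94. By this ratio cwr-1 was in place 2 of the 4817 genes above 0 in both libraries that reach 10 RPKM in either.

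The other gene of this checkpoint, cwr-2, stood at 55.6 RPKM (50.7 to 60.8) in the wild type and 1.64 RPKM (0.949 to 2.63) in Δpp-1. Its ratio was 33.9-fold and took place 23, against place 18 for the deleted gene pp-1. With the pseudocount the log2 fold was -4.42, and -4.17 when set against all genes. In the wild type the level of cwr-1 was 7.44 times that of cwr-2, and in Δpp-1 it was 0.42 times, with overlapping intervals. The gene between them in the annotation, NCU01381, stood at 133.7 RPKM in the wild-type library and 132.7 RPKM in the Δpp-1 library, so the differences of cwr-1 and cwr-2 were not shared by the gene they flank.

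Of the genes acting after fusion, rcd-1 was at 39.1 RPKM in wild-type germlings (31.9 to 47.4), above 78.8% of genes, and was listed at 0 in Δpp-1. No fold is given against this 0. One read over its annotated span would read as 0.159 RPKM. It ranked in place 2 by wild-type level among the 13 genes at 10 RPKM or more there that have a 0 in the Δpp-1 table. It was not among the genes that the tables list more than once.

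The members of the plp-1 and sec-9 pair went different ways. NCU09243 stood at 72.5 RPKM (64.2 to 81.6) in the wild type and 73.3 RPKM (65.6 to 81.6) in Δpp-1. Its intervals overlap and the log2 fold was 0.01, which is 0.26 above all genes. NCU09244 stood at 12.003 RPKM (9.92 to 14.4) in the wild type and 3.08 RPKM (2.15 to 4.27) in Δpp-1, a ratio of 3.90-fold and a log2 fold of -1.67. These intervals do not overlap. In the wild type the level of NCU09243 was 6.04 times that of NCU09244, and in Δpp-1 it was 23.8 times. The lower member, NCU09244, was the only one of the 7 near the median gene in the wild type, above 50.1% of genes.

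Set in order, the wild-type levels ran from cwr-1 through doc-2, NCU09243, doc-1, cwr-2 and rcd-1 to NCU09244. The intervals of NCU09243 and doc-1 overlap, as do those of doc-1 and cwr-2. Overlap of 2 intervals does not by itself place a difference within counting error, and the order was not tested. The order in Δpp-1 was NCU09243, doc-2, doc-1, NCU09244, cwr-2, cwr-1 and rcd-1. There the intervals of NCU09244 and cwr-2 overlap, and so do those of cwr-2 and cwr-1. The 7 levels summed to 820 RPKM in the wild-type library and 179 RPKM in the Δpp-1 library, a ratio of 4.59. cwr-1 alone made up 50.4% of the wild-type sum, and without it the sums were 407 and 178 RPKM, a ratio of 2.29. The median log2 fold of the 7 was -1.67, which is 1.42 below all genes. It is the value of NCU09244, with rcd-1 entered at 0, and without rcd-1 the median of the other 6 was -1.60.

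**Figure D2:**
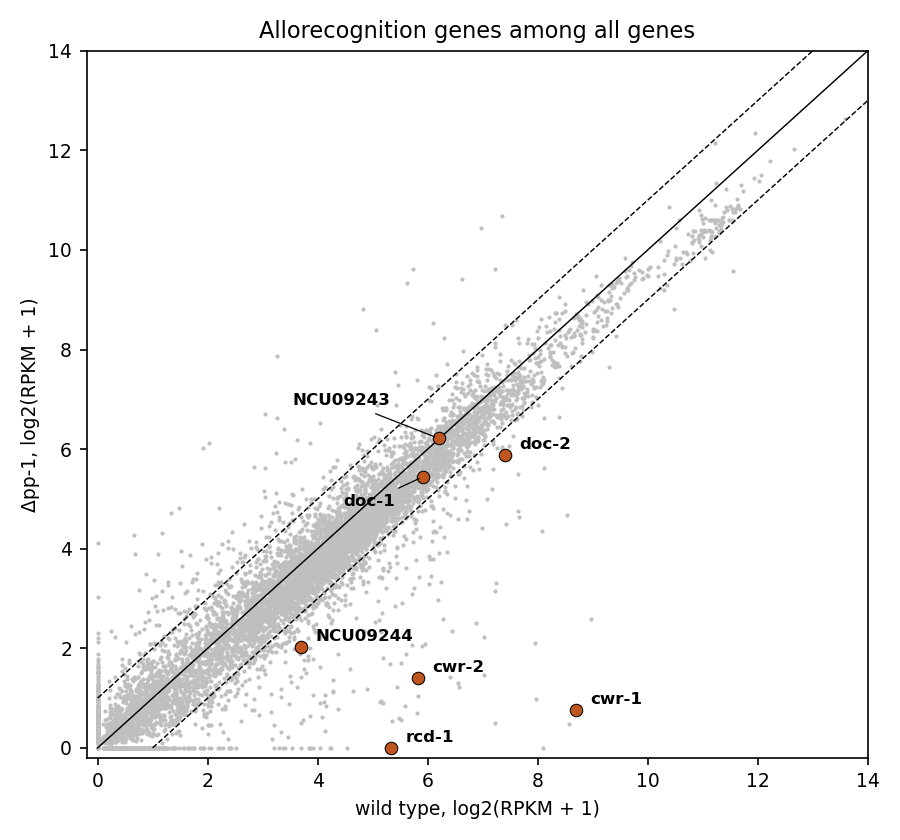
Each point is 1 gene, with log2(RPKM + 1) in the wild type on the x axis and in Δpp-1 on the y axis, and the 7 allorecognition genes in orange. The solid line marks equal values and the dashed lines 2-fold differences. NCU09243 and doc-1 lie between the dashed lines, doc-2 and NCU09244 below the lower one, and cwr-1, cwr-2 and rcd-1 far below it.

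The genes next to the 4 loci were compared to see whether the differences extended along the chromosome. Of 25 genes, 3 on either side of each locus plus NCU01381, 18 were measured, and 10 of these reached 10 RPKM in either library. At least 2-fold lower were 2 of the 10, and none was 2-fold higher, beside 6.98% and 2.73% of all genes. The flanking genes averaging 1 RPKM or more had a median log2 fold of -0.22, beside -0.25 for all genes. By locus this median was -0.98 at doc, -0.10 at cwr, -0.36 at rcd-1 and -0.05 at plp-1/sec-9. Each rests on few genes, and at doc only 1 flanking gene reached 10 RPKM.

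Both flanking genes past 2-fold adjoin a member. NCU09245, next to NCU09244, stood at 23.96 RPKM in the wild-type library and 1.20 RPKM in the Δpp-1 library, a ratio of 20.0-fold and a log2 fold of -3.50. This exceeds the difference of NCU09244 itself. The gene next to doc-1, gh6-3 (NCU07190), named as a glycoside hydrolase gene, stood at 13.2 and 2.41 RPKM, a ratio of 5.49-fold. On the far side of NCU09243, NCU09242 had a 0 in the wild-type table and 0.49 RPKM in the other, and NCU09241 stood at 8.05 and 11.2 RPKM. On the doc-2 side, NCU07193 stood at 5.43 RPKM in the wild-type library and 4.48 RPKM in the Δpp-1 library, NCU07195 at 6.71 and 2.91 RPKM, and NCU07194 at 0.343 RPKM and listed at 0.

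Around cwr-1 and cwr-2 no flanking gene passed 2-fold. The kinase gene stk-18 (NCU01379), next to cwr-1, stood at 10.01 RPKM in the wild-type library and 10.1 RPKM in the Δpp-1 library. NCU01378 stood at 15.1 and 13.2 RPKM, and NCU01377 at 8.25 and 4.67 RPKM. On the cwr-2 side, NCU01383 stood at 3.16 RPKM in the wild-type library and was listed at 0 in the Δpp-1 library, under the minimum of 10 RPKM, and NCU01386 stood at 11.7 and 17.8 RPKM. The genes directly on either side of rcd-1 were not analysed here. The nearest measured ones, NCU05714 at 143 and 111 RPKM, NCU05715 at 28.7 and 21.6 RPKM and NCU10387 at 6.55 and 5.56 RPKM, had log2 folds from -0.40 to -0.20.

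**Figure D3:**
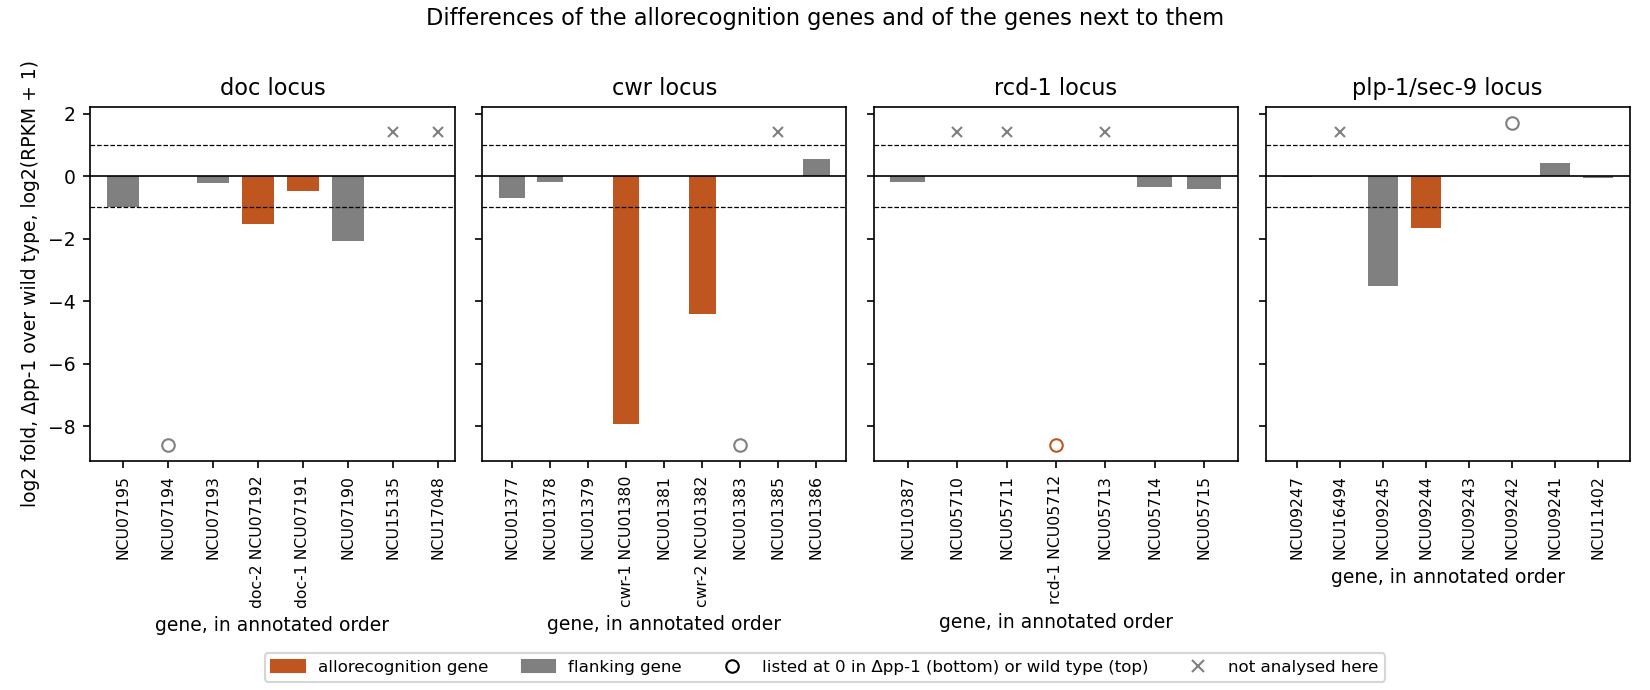
Log2 fold (Δpp-1 over wild type, log2(RPKM + 1)) of the allorecognition genes (orange) and of the genes next to them (grey), in annotated order at each locus, with dashed lines at 2-fold. Open circles are genes listed at 0 in 1 library, placed at the edge, and crosses are genes not analysed here. Bars of NCU01379, NCU01381 and NCU09243 are too short to see because their values are near 0, while cwr-1 and cwr-2 reach -7.94 and -4.42 on either side of NCU01381.

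The genes whose pair of levels was most like each member were found by the distance in log2(RPKM + 1) over the 2 libraries. With 2 libraries likeness means only similar levels in both. Closest to cwr-1 were NCU04496, at 377 RPKM in the wild-type library and 0.386 RPKM in the Δpp-1 library (distance 0.31), and NCU04527, at 249 and 0.983 RPKM (0.77). For cwr-2 they were NCU04488, at 52.6 and 1.73 RPKM (0.090), and the polysaccharide monooxygenase gene gh61-2 (NCU07760), at 55.7 and 1.06 RPKM (0.36). The first distance of cwr-1, 0.31, was the largest first distance among the 7 genes.

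The gene closest to rcd-1 was NCU05629, at 36.9 RPKM in the wild-type library and listed at 0 in the Δpp-1 library (distance 0.082), followed by NCU07827 at 39.7 and 0.447 RPKM (0.53). The closest to doc-2 were the invertase gene inv (NCU04265), at 166 and 57.6 RPKM (0.024), and the fusion gene ham-8 (NCU02811), at 172 and 55.6 RPKM (0.058). For doc-1 they were NCU03039 (0.016) and NCU04784 (0.041), for NCU09243 nuo20.8 (NCU02472), a gene of respiratory complex I (0.013), and NCU02599 (0.015), and for NCU09244 NCU05609 (0.094) and NCU04502 (0.13).

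Other genes of non-self recognition and fungal cell death were counted next. This list held 15 entries, which matched 7 measured genes, and the other entries were not compared. None of the 4 that reach 10 RPKM was at least 2-fold higher or lower. Over the 6 averaging 1 RPKM or more, the median log2 fold was -0.03, or 0.22 above all genes. The transcription factor gene vib-1 (NCU03725), linked to incompatibility, was at 50.4 RPKM in the wild-type library and 52.6 RPKM in the Δpp-1 library. The incompatibility gene het-c (NCU03493) stood at 21.4 and 21.95 RPKM, and un-24 (NCU03539), a ribonucleotide reductase gene linked to incompatibility, at 83.9 and 78.0 RPKM. The NADH dehydrogenase gene nde-1 (NCU05225) stood at 7.32 and 10.1 RPKM.

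Below the minimum of 10 RPKM, 2 members of that list were low in Δpp-1. The gene tol (NCU04453), through which mating-type incompatibility acts, stood at 4.76 RPKM in the wild-type library and 1.16 RPKM in the Δpp-1 library. Of the linked partners het-c and pin-c, pin-c (NCU03494) stood at 3.88 RPKM in the wild-type library and was listed at 0 in the Δpp-1 library. The last measured member, het-6 (NCU03533), was at 0.233 and 0.392 RPKM.

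Lists of the fusion steps that the checkpoints guard were counted beside them. Like the other lists set beside the 7 genes, they were written with earlier results of these data known. Nothing is therefore read from their counts. The list of MAK-2 signal exchange and contact held 15 entries, which matched 11 measured genes. Of these, 3 were at least 2-fold lower and none higher, beside 6.98% lower and 2.73% higher among all genes. The median log2 fold was -0.19. The ends of this list were so (NCU02794), needed for signal exchange, at -1.61 and nox-1 (NCU02110) at -1.48, and cse-1 (NCU04379) at 0.16 and nrc-1 (NCU06182) at 0.01. The list of wall contact and membrane merger held 11 entries, which matched 10 measured genes. Of these, 6 were at least 2-fold lower and none higher, beside the same 6.98% and 2.73%. The median of this list was -1.07. Its ends were Prm1 (NCU09337), of membrane merger, at -4.88 and mek-1 (NCU06419), a MAP kinase kinase gene, at -1.97, and mik-1 (NCU02234) at 0.13 and wsc-1 (NCU06910) at -0.09. Beside these values, the log2 fold of cwr-1 was below and that of cwr-2 above that of Prm1, and the log2 fold of doc-2 was between those of so and nox-1.

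Since CWR-1 belongs to a family of enzymes that act on polysaccharides, genes of chitin synthesis and breakdown were counted too. Of 14 measured, 7 reach 10 RPKM, and 1 of these was at least 2-fold lower, beside 6.98% of all genes. It was chs-3 (NCU04251), a chitin synthase gene, with a log2 fold of -1.18. The chitinase gene chit-1 (NCU02184) was at -0.42, and gh18-5 (NCU04554) and chs-5 (NCU04352) at 0.37 and 0.32. The median was -0.13. From the secretory pathway, to which SEC-9 belongs, only ypt-1 (NCU08477), a Rab-type GTPase gene, was matched by symbol, at 120.1 RPKM in the wild-type library and 86.0 RPKM in the Δpp-1 library (log2 fold -0.48).

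Some markers of conidia and aerial hyphae were higher in the Δpp-1 library. Of 10 such genes 6 reach 10 RPKM in either library, and 4 of these were at least 2-fold higher and none lower, beside 2.73% higher and 6.98% lower among all genes. The levels of the 10 summed to 109 RPKM in the wild-type library and 360 RPKM in the Δpp-1 library. Of these sums, al-1 alone accounted for 41.1 and 187 RPKM. The largest log2 folds were those of con-10 (NCU07325) at 2.56 and al-1 (NCU00552) at 2.16, and the smallest those of acon-3 (NCU07617) at -0.76 and con-8 (NCU10997) at -0.23. The marker con-13 (NCU07324) had a 0 in the wild-type table, and no marker had one in the Δpp-1 table. Their part in the differences of the 7 genes was not tested.

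The scaling of the libraries to each other bears on the smaller differences. Median scaling, which set Δpp-1 to the wild-type median of the genes averaging 10 RPKM or more, raised Δpp-1. The log2 folds became -0.22 for doc-1, -1.28 for doc-2 and 0.27 for NCU09243. After this scaling, the number past 2-fold downward was again 5 of 7, beside 4.57% of all genes. The sign of NCU09243 against all genes was positive and that of the other 6 negative under each scaling and pseudocount tried. A scaling shifts each gene and the median of all genes nearly alike, so the scalings could hardly change these signs. Not set against all genes, 6 of the 7 log2 folds, with rcd-1 entered at 0, were also below 0 under each of these settings.

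**Figure D4:**
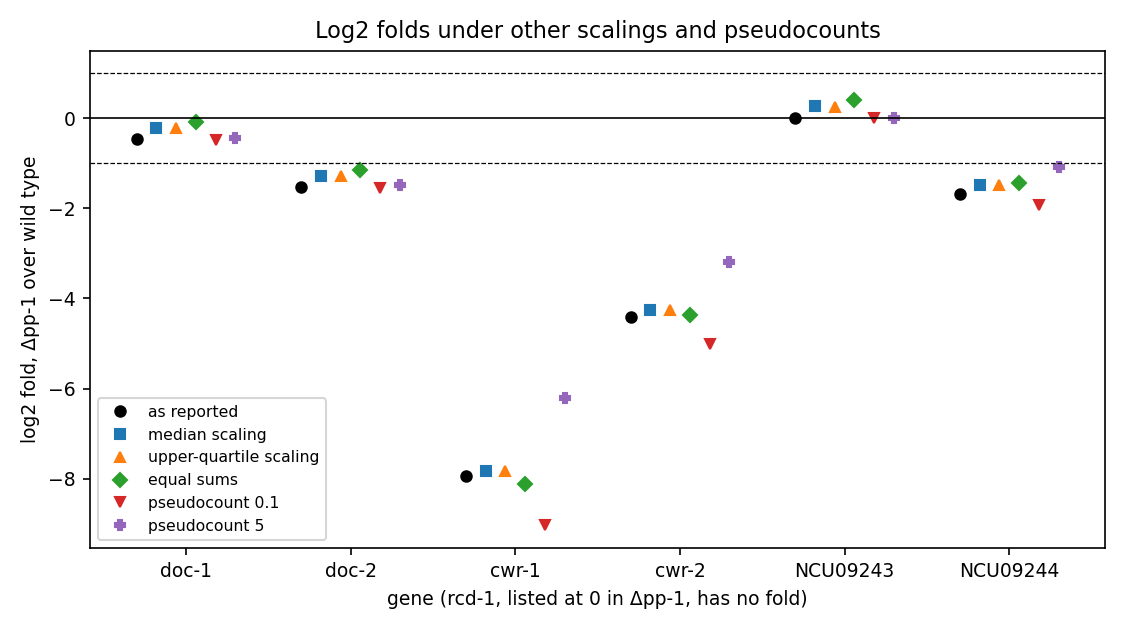
Log2 fold (Δpp-1 over wild type) of the 6 genes above 0 in both libraries as reported (black circles) and with other scalings or pseudocounts (colours), with dashed lines at 2-fold. The values of doc-2, cwr-1, cwr-2 and NCU09244 stay below the lower line, and those of doc-1 and NCU09243 stay between the lines.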

How the data were processed

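RNA-seq was done on 1 library per strain. Trizol extraction, oligo(dT) selection and random-primed cDNA are described per the labels' protocols, and these steps do not mark strand. Per the submitters' processing notes TopHat and Cufflinks were used, with no role or version given, and the genome build and annotation are not given in the sources used here. The deposited values are RPKM per the file headers, 1 table per library with 8802 lines for 8564 genes. Repeated identifiers carried equal values and were counted once. Symbols, annotated spans and gene order came from NCBI RefSeq's table of assembly NC12 (8087 identifiers matched a current and 85 an older locus tag). No coordinates of it are printed.

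Log2 folds used a pseudocount of 1 RPKM, and genes reaching 10 RPKM in either library were counted at 2-fold. Reads per gene were taken as RPKM times span divided by the value of 1 read, 0.254 RPKM kb in the wild type and 0.214 in Δpp-1. The ratio of these equals 1.19, at which 100 of 800 low genes pile up, as genes with equal reads would. Intervals are exact (Poisson for levels, Clopper-Pearson for ratios) at 95%, from 50% of these reads, since spans hold introns. PCR copies are not independent molecules. Computation used Python 3.11.15, numpy 2.4.6, pandas 2.3.3 and scipy 1.17.1, and was tested on simulated data. Scaling, pseudocount, filter and threshold were varied.

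The members and all 6 lists set beside them were chosen with earlier results of these data known. Named were the members, pp-1, 3 annotated genes on either side of each locus, the 2 genes closest to each member, and up to 2 genes at either end of each list. Members of short lists named beyond this (het-c, un-24, het-6, con-13) were chosen after their values were seen.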

Additional observations from a re-analysis of the deposited data

How the results depend on the processing

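No paired analysis was possible because there was a single library of each strain, and for that reason none could be left out. The count of 5 lower members held under every scaling and pseudocount tried, without a filter, with a minimum of 1 RPKM and for 1.5-fold. It became 4 at a minimum of 30 RPKM, which leaves out NCU09244, and 3 at 4-fold, where fewer genes can pass by construction. No member was 2-fold higher under any of these settings. The log2 folds of doc-1, doc-2 and NCU09243 were -0.22, -1.28 and 0.27 with median scaling, -0.22, -1.29 and 0.26 after upper-quartile scaling, and -0.078, -1.15 and 0.41 when each library summed to 1000000. These scalings raise Δpp-1 relative to the wild type, and the median of all genes by 0.24, 0.23 and 0.37. A pseudocount of 5, which shrinks low values, gave -3.19 for cwr-2 and -1.07 for NCU09244. Against 337 lower and 132 higher genes among all genes, median scaling gave 221 and 212, upper-quartile scaling 224 and 206, and equal sums 197 and 288. Dropping the filter or setting it to 1 RPKM gave 521 and 252, a minimum of 30 RPKM gave 179 and 67, a 1.5-fold threshold 1125 and 295, and a 4-fold threshold 113 and 39. Leaving out rcd-1, an alternative chosen after seeing the data, gave 4 lower members of 6 and a median of -1.60. At this depth the Δpp-1 level of cwr-1 rests on too few reads to fix a ratio. The search for promoter elements and the comparison of proteins planned at the start were not run.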

Other observations

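Among all 4740 genes that reach 10 RPKM and have a place in the annotated gene order, 6.01% had an adjacent gene at least 2-fold lower in Δpp-1. Among the 324 of them that were themselves at least 2-fold lower, the share was 11.1%, or 36 genes, and NCU09244 is one of these. The counts are given without a test.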
